A study of Mus musculus with 17 samples.

Results

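The genes described here write, bind or organize methylation of histone H3 at lysine 9 (H3K9), the chromatin mark of heterochromatin. They were chosen by name: the methyltransferase genes Suv39h1, Suv39h2, Setdb1, Setdb2, Ehmt1 and Ehmt2, the corepressor gene Trim28, and the heterochromatin protein 1 (HP1) genes Cbx1, Cbx3 and Cbx5. All array rows (probe sets) to which the platform annotation gives 1 of these symbols were taken. Of these 10 genes, 9 had a row, with 15 rows in all out of 21780 rows that carried exactly 1 gene symbol. Cbx3 held 7 of the 15 rows and every other gene held 1, while Suv39h1 was not analysed here.

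Expression was measured in 17 single 2-cell embryos of strain 129SVE (129S6/SvEvTac), 1 array per embryo. The fathers were wild-type males injected for 6 weeks, either with saline or with PJ34. PJ34 is a compound that blocks PARP1 and PARP2, the enzymes that build poly(ADP-ribose) chains. A legend of the study on sperm of PJ34 males gives daily injection over a course longer than 6 weeks. The mothers were wild-type females without treatment that conceived by natural mating. Control embryos numbered 7 and came from 3 sires: 1 from A, 3 from B and 3 from D. PJ34 embryos numbered 10 and came from 3 sires: 4 from MTM11, 4 from MTM13 and 2 from MTM14. The study asked whether a disturbed sperm chromatin structure in the father is followed by altered gene expression in his offspring. The labels call the control sires saline treated in one field and untreated in another. Embryos that share a sire are not independent of that sire, and the labels give no age for the males.

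H3K9 methylation is deposited by SET domain enzymes and read by HP1 proteins, which bind the methylated lysine through a chromodomain and compact the surrounding chromatin. In the fertilized mouse egg the maternal chromosomes carry H3K9 trimethylation, whereas the paternal genome arrives packaged largely by protamines and must be given new histones. At the 2-cell stage the embryo takes over transcription from the stored maternal RNA, so that a transcript measured at this stage can come from either source.

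Values are log2 intensities on the RMA (robust multichip average) scale, so that a difference of 1 stands for a 2-fold change. Array medians over the whole table lay between 6.12 and 6.23. Oocyte and embryo markers averaged 9.52 in control and 9.31 in PJ34 embryos (ranges over embryos 9.35 to 9.67 and 8.89 to 9.48). Markers of cumulus cells averaged 5.04 and 5.03, markers of oviduct and blood 5.27 and 5.31, and spermatid markers 6.06 and 6.05. These last 3 marker lists averaged below the median row mean of 6.25 in both groups. Not every row in them did: Prm2 averaged 7.07 in control and 6.96 in PJ34 embryos, and Slc4a1 6.82 and 6.66. The oocyte and embryo marker list was lower on average in the PJ34 embryos, with ranges that overlapped, and its part in the differences described here was not tested. Its rows differed unevenly. The log2 difference was -1.11 for Usp17lb, -0.72 for Khdc3, and -0.60 and -0.15 for the rows of Dppa4, while Bmp15 was higher (0.29). Gdf9 (-0.05), Zp3 (0.05), Nlrp5 (-0.02), Padi6 (-0.000933) and the rows of Zar1 (-0.05 and -0.00469) differed little. An embryo was measured as a whole, so that a lower level in 1 cell and in both cells cannot be told apart.

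The 9 genes with a row all averaged above the median row mean of 6.25, although Ehmt2 was close to it. The brightest Cbx3 row averaged 11.55 over all embryos (10.55 for Suv39h2, 9.85 for Setdb2, 8.99 for Cbx5 and 8.57 for Trim28). Cbx1 followed with 8.02, Setdb1 with 7.96, Ehmt1 with 7.83 and Ehmt2 with 6.30. In percentiles of all rows the level ran from 98.1 for Cbx3 and 94.7 for Suv39h2 to 51.2 for Ehmt2. The brightest row of Cbx3, which encodes HP1 gamma, did not overlap in intensity with the row of any other member in these embryos. Neighbours further down overlapped from embryo to embryo: Suv39h2 ranged from 10.19 to 10.75 and Setdb2 from 8.18 to 10.65, and the ranges of Cbx1 (7.20 to 9.11), Setdb1 (7.30 to 8.74) and Ehmt1 (7.36 to 8.40) shared most of their span. Ehmt2, with a range of 5.92 to 6.82, lay below all others. Intensities of different probe sets also depend on how well each probe binds, so this order is one of array signal and not of transcript number.

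**Figure D1:**
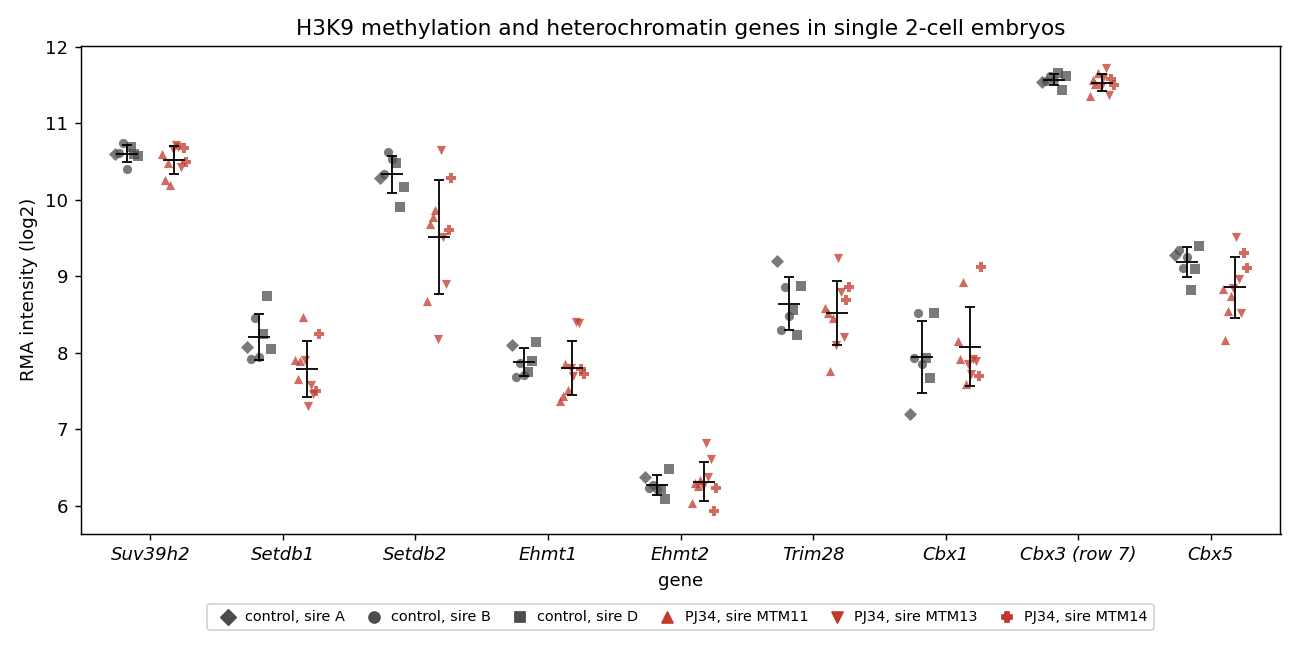
RMA intensity (log2, vertical axis) of the brightest row of each gene in the 7 control embryos (grey) and the 10 PJ34 embryos (red), with 1 symbol shape per sire; black bars give the group mean and SD. Setdb2 in PJ34 embryos reached down to 8.18, whereas no control embryo was below 9.91, and the Cbx3 row stayed between 11.35 and 11.72 in all embryos.

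Among the methyltransferases, Setdb2 and Setdb1 had lower mean intensities in the PJ34 embryos. Setdb2, a SET domain protein of the H3K9 methyltransferase family, lies on chromosome 14 (GRCm38.p6, 59402009 to 59440880). Setdb1, which trimethylates H3K9 at silenced retrotransposons after recruitment by Trim28, lies on chromosome 3 (95323525 to 95357202). The promoter windows of these genes are shown because they are the members with the lowest p-values, and the study asked about chromatin at promoters. Each sequence is from RefSeq on GRCm38.p6, 5′ to 3′ on the minus strand on which both genes lie, and runs from 250 bases before to 50 bases after the transcription start, with each CG dinucleotide in capitals (the motif reads CG on both strands). The Setdb2 window is chr14:59440831-59441130 and the Setdb1 window is chr3:95357153-95357452.
Setdb2: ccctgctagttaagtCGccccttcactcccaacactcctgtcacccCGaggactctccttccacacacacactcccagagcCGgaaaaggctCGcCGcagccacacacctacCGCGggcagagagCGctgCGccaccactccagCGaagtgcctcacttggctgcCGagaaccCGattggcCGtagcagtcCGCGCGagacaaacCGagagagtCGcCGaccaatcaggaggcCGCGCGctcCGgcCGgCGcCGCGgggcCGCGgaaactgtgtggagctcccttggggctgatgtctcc
Setdb1: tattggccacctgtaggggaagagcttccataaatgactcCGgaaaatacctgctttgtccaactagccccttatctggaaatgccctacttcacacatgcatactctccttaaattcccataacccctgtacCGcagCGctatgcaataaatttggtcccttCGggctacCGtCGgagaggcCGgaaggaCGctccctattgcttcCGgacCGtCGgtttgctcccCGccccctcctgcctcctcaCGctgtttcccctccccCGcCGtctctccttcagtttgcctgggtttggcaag

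The Setdb2 window held 29 CG dinucleotides, more than 87.1% of the 32851 promoter windows of the same length. The Setdb1 window held 15, more than 65.4% of them, against a median of 7 over all windows. Windows were listed for all 10 members, 14 in all, and each of the 14 lay above that median, from 8 in one of the Cbx5 windows to 40 in one of the Ehmt2 windows. A CG-rich window is a description of sequence and was not tied to any measurement in the embryos.

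In control embryos Setdb2 ranged from 9.91 to 10.62 with a median of 10.33. In PJ34 embryos it ranged from 8.18 to 10.65 with a median of 9.65. The groups overlapped: 8 of the 10 PJ34 embryos were below every control embryo, 1 was above every control embryo (MTM13-2, 10.65) and MTM14-2 (10.28) lay among the controls. Group means were 10.33 ± 0.24 (SD, n = 7) and 9.51 ± 0.74 (SD, n = 10), and the difference was 1.77-fold (log2 difference -0.82, 95% interval -1.41 to -0.23). With limma the unadjusted p was 0.009 and the adjusted p 0.814, so the difference did not pass the threshold of 0.1 after Benjamini-Hochberg adjustment over 21780 rows.

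In control embryos Setdb1 ranged from 7.91 to 8.74 with a median of 8.07. In PJ34 embryos it ranged from 7.30 to 8.47 with a median of 7.77. Again 8 of the 10 PJ34 embryos were below every control embryo, although MTM11-1 (7.91), MTM13-1 (7.90) and MTM11-3 (7.89) were below the lowest control by less than 0.05. Means were 8.20 ± 0.30 (SD, n = 7) and 7.79 ± 0.36 (SD, n = 10). The log2 difference was -0.41 (95% interval -0.75 to -0.07), with an unadjusted p of 0.020 and an adjusted p of 0.843 by limma. Without control embryo D-2, which had the highest control value, the unadjusted p by limma was 0.057 (adjusted p 0.827), and without the 4 embryos of sire MTM13 it was 0.160 (adjusted p 0.927). At least 8 of 10 PJ34 embryos below every control embryo was a pattern held by 0.354% of all rows, a criterion chosen after these values were seen.

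The other methyltransferases differed by less than the spread between embryos. Suv39h2, which trimethylates H3K9 at pericentromeric repeats together with its paralogue Suv39h1, averaged 10.60 ± 0.11 (SD, n = 7) in control and 10.52 ± 0.18 (SD, n = 10) in PJ34 embryos, with a 95% interval of the log2 difference from -0.25 to 0.08. Ehmt1 and Ehmt2 encode the partner enzymes GLP and G9a, which place mono- and dimethylation of H3K9 in euchromatin. Their log2 differences were -0.08 (95% interval -0.38 to 0.22) and 0.04 (95% interval -0.17 to 0.26), and the Ehmt2 difference was negative on sire means (-0.02). Trim28, the scaffold that KRAB zinc finger proteins use to recruit Setdb1, averaged 8.64 ± 0.35 (SD, n = 7) and 8.52 ± 0.42 (SD, n = 10), a log2 difference of -0.12 (95% interval -0.51 to 0.27). The differences of Suv39h2, Ehmt1 and Trim28 were positive (0.01, 0.09 and 0.01) without the embryos of sire MTM11.

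Of the HP1 genes, Cbx5 had the lowest p-value. Cbx5, which encodes HP1 alpha, ranged from 8.81 to 9.40 in control embryos (median 9.25) and from 8.16 to 9.52 in PJ34 embryos (median 8.84). The ranges overlapped, with 4 PJ34 embryos below every control embryo and 1 above. The log2 difference was -0.33 (95% interval -0.66 to 0.00), with an unadjusted p of 0.050 and an adjusted p of 0.843 by limma. Without the embryos of sire MTM11 the difference was -0.14.

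Cbx1, which encodes HP1 beta, averaged 7.94 ± 0.47 (SD, n = 7) in control and 8.08 ± 0.52 (SD, n = 10) in PJ34 embryos. Its log2 difference of 0.13 (95% interval -0.36 to 0.63) was 0.01 without control embryo A-2, the embryo with the lowest Cbx1 value (7.20). The 7 rows of Cbx3 differed by -0.05 to 0.01 between the groups. Rows 3 and 5 held the same value in every embryo, leaving 6 distinct sets of values, and the lowest correlation between any pair of the rows across embryos was 0.62. In 3 rows the control mean was 11.19, 11.43 and 11.57, and in the other 4 it lay between 9.50 and 9.53. The sources used here do not say which rows read Cbx3 alone. Averaged over its rows, Cbx3 gave a log2 difference of -0.02 with a 95% interval of -0.19 to 0.14.

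**Figure D2:**
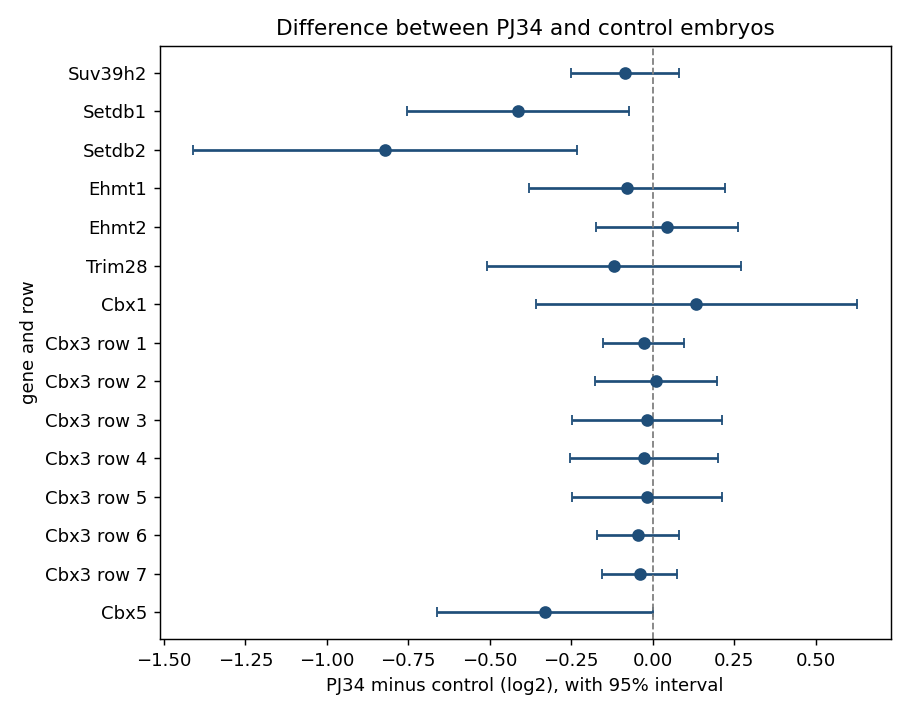
Log2 difference of PJ34 minus control embryos (horizontal axis) for each of the 15 rows, with the 95% interval from limma as bars; the dashed line marks no difference. The intervals of Setdb2 and Setdb1 lay below 0, that of Cbx5 reached 0.00, and those of the remaining rows crossed 0.

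No row of these genes passed the adjusted threshold, and neither did any of the 21780 rows (0%). The lowest adjusted p by limma over all rows was 0.112, and a one-way analysis of variance between the groups also called 0 rows. The study called genes by setting individual embryos against the controls, which this comparison of whole groups does not repeat. At an unadjusted p below 0.05, limma counted 2 of the 15 member rows, both lower in PJ34 embryos, against 5.89% of all rows (1282 rows; 1.96% higher and 3.93% lower). In 12 of the 15 rows the PJ34 mean was lower, and 56.4% of all rows were lower. The median difference was -0.04 over the member rows and -0.02 over all rows. That of the member rows was 0.01 without sire MTM11 and -0.10 without sire MTM13. Counted by gene with the brightest row of each, 7 of 9 genes had a lower mean in the PJ34 embryos. Of the 15 rows, 7 belong to Cbx3 alone.

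The embryos differed within the PJ34 group. Each PJ34 embryo was compared by limma with the 7 controls, whose residual spread was used. Setdb2 was called lower at an adjusted p below 0.1 in 3 embryos, MTM11-1 (log2 difference -1.66, adjusted p 0.0312), MTM13-1 (-2.15, adjusted p 0.0086) and MTM13-4 (-1.44, adjusted p 0.0719). No other member row was called in any PJ34 embryo, and no member row was called in a control embryo set against the other 6. The share of all rows called was 0.868% in MTM11-1, 0.289% in MTM11-2, 0.537% in MTM11-3 and 0.579% in MTM11-4. It was 0.918% in MTM13-1, 0.491% in MTM13-2, 0.551% in MTM13-3, 0.615% in MTM13-4, 0.62% in MTM14-1 and 0.34% in MTM14-2. The embryos in which Setdb2 was lowest, MTM13-1 and MTM11-1, were also those with the most called rows of any kind (200 and 189), while control embryos had 63 to 106. This fit assumes that a PJ34 embryo varies like a control embryo.

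Setdb2 and Setdb1 were low together in some PJ34 embryos and not in others. In MTM13-4, Setdb2 (8.89) and Setdb1 (7.46) were both among the lowest values of all embryos. The lowest Setdb1 value (7.30) was in MTM13-2, the embryo with the highest Setdb2 value. In MTM11-4 and MTM14-2, Setdb1 was 8.47 and 8.24, the 2 PJ34 embryos above the control mean. Cbx5 was lowest in MTM11-2 (8.16) and Trim28 in MTM11-3 (7.76). The highest Cbx1 values of all embryos were in MTM14-2 (9.11) and MTM11-3 (8.92). Averaged over the 15 rows, the level was lowest in MTM11-1 (9.03) and ranged up to 9.58 in control embryo B-2.

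**Figure D3:**
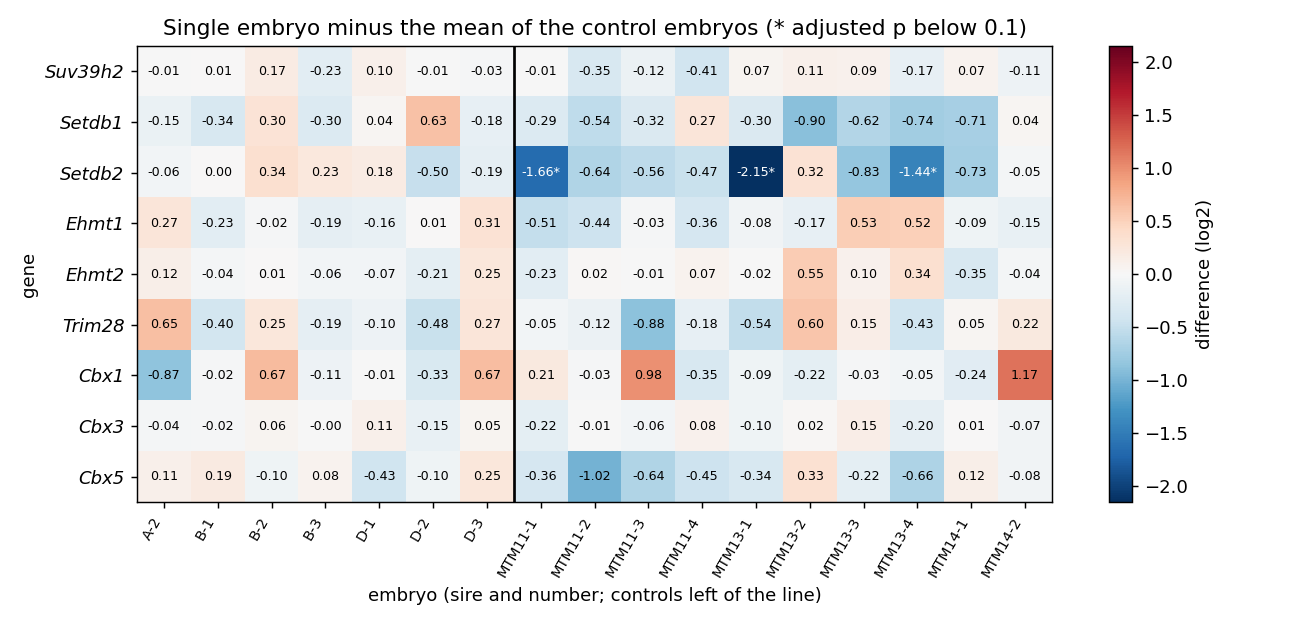
Difference (log2, colour and number) of each embryo from the mean of the control embryos for the brightest row of each gene; a control embryo, left of the line, is set against the other 6 controls, and a PJ34 embryo against all 7. Asterisks mark an adjusted p below 0.1, which Setdb2 reached in MTM11-1, MTM13-1 and MTM13-4 with differences of -1.66, -2.15 and -1.44.

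The families of the treated sires were compared next. Setdb2 averaged 9.50 ± 0.56 (SD, n = 4) in the embryos of MTM11, 9.31 ± 1.04 (SD, n = 4) in those of MTM13 and 9.94 ± 0.48 (SD, n = 2) in those of MTM14. All 3 means lay below those of the control families (10.28 for the single embryo of sire A, 10.49 ± 0.15 for B and 10.19 ± 0.29 for D, SD, n = 3 each). The family means of Setdb1 were also apart, with 7.98, 7.56 and 7.87 in MTM11, MTM13 and MTM14. In A, B and D they were 8.07, 8.11 and 8.34. The share of all rows with family means apart in this way was not computed. Suv39h2 averaged 10.38 ± 0.19 (SD, n = 4) in MTM11 embryos and 10.62 ± 0.13 (SD, n = 4) in MTM13 embryos. Ehmt1 showed the same order, with 7.54 ± 0.21 (SD, n = 4) in MTM11 and 8.07 ± 0.38 (SD, n = 4) in MTM13 embryos. Ehmt2 averaged 6.23 ± 0.13 (SD, n = 4), 6.52 ± 0.25 (SD, n = 4) and 6.08 ± 0.22 (SD, n = 2) in MTM11, MTM13 and MTM14 embryos. Cbx5 ran from 8.57 ± 0.30 (SD, n = 4) in MTM11 to 9.20 ± 0.14 (SD, n = 2) in MTM14 embryos. In limma's moderated F test over the 3 PJ34 families, Ehmt1 and Ehmt2 had unadjusted p-values of 0.024 and 0.034 (adjusted p 0.999 for both). That is 2 of 15 member rows, against 4.8% of all rows, and 0.00918% of all rows (2 rows, none a member) passed the adjusted threshold. In a one-way analysis of variance no member row reached an unadjusted p below 0.05. For Setdb2 the F test gave an unadjusted p of 0.496 (adjusted p 0.999 by limma).

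The SD between embryos was higher in the PJ34 group for the members, although no row passed a test of the spread. It was higher than in control embryos in all 15 rows, against 53.6% of all rows and 56.5% of the rows above the median level. The median log2 ratio of the SDs was 0.69 over the member rows and 0.06 over all rows. Setdb2 had the largest ratio, 3.05 (SD 0.74 against 0.24), at the 96.7th percentile of all rows. Ehmt2 followed with 2.03, Cbx5 with 1.99, Ehmt1 with 1.91 and Suv39h2 with 1.70, while Setdb1 (1.20), Trim28 (1.21) and Cbx1 (1.12) differed little. When the absolute deviations from the group means were compared by limma, 1 of the 15 rows, Setdb2, had an unadjusted p below 0.05 (0.044, adjusted p 0.564), against 8.69% of all rows. At an adjusted p below 0.1 this test called 0.0275% of all rows, none of them a member.

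The number of rows with a higher SD depended on single embryos. Without MTM11-1 it was 10 of 15, and the median log2 ratio was 0.34. In row 3 of Cbx3 that embryo was at 8.89, against 9.27 or more in every other PJ34 embryo. With the brightest row of each gene, 9 of 9 genes had a higher SD in PJ34 embryos, 9 of 9 without MTM11-1 and 7 of 9 without MTM11-3. The Setdb2 ratio stayed between 2.52 and 4.37 with any 1 of the 17 embryos left out. Members share embryos, so the rows are not independent counts of a wider spread.

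**Figure D4:**
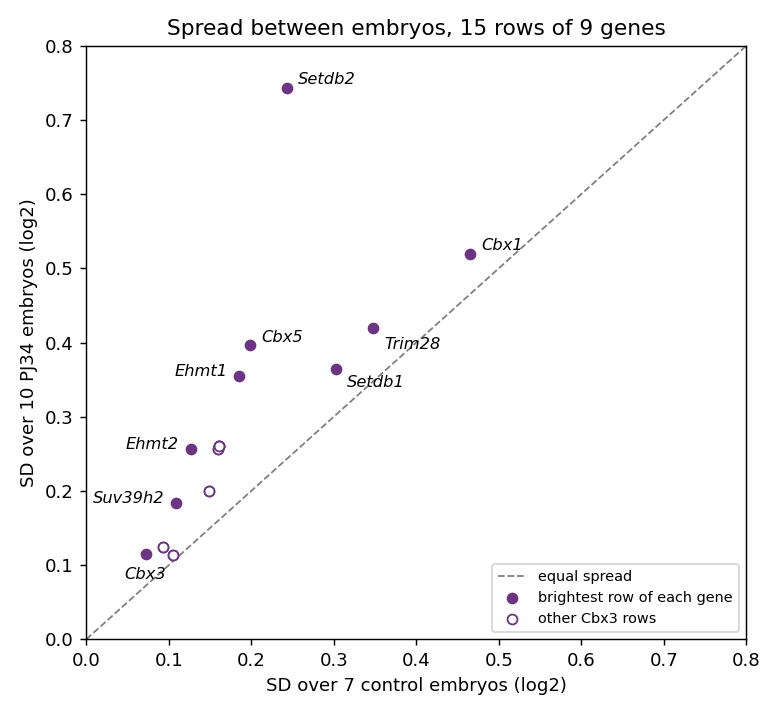
SD over the 7 control embryos (horizontal axis, log2) against SD over the 10 PJ34 embryos (vertical axis, log2) for the 15 rows, with filled points for the brightest row of each gene and open points for the other Cbx3 rows; the dashed line marks equal spread. All points lay above the line, with Setdb2 at 0.24 and 0.74.

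Variation between embryos was then followed from gene to gene. Over the 17 embryos, with each group's mean removed, Pearson's r was computed for the 36 pairs of the 9 genes. It ranged from -0.39 to 0.56 with a median of 0.08 and was positive in 21 pairs. At an unadjusted permutation p below 0.05 there were 4 pairs, and none had an adjusted p below 0.1. The highest r was that of Trim28 and Cbx5 (0.56, Spearman's rho 0.57, permutation p 0.0192 and 0.0186, adjusted p 0.409 and 0.442), and it was 0.33 without MTM11-3 and MTM13-2, the embryos farthest from the median of Trim28. Setdb2 and Cbx3 followed with 0.54 (rho 0.55, permutation p 0.0254 and 0.0246, adjusted p 0.409 and 0.442), and with 0.60 after the 2 embryos farthest from the median of Setdb2 were left out. Only row 7 of Cbx3 entered this pair, and no correlation with Setdb2 was computed for its other rows. MTM13-1, lowest in Setdb2, was below the PJ34 mean in rows 1, 6 and 7 of Cbx3 (row 7: 11.47 against 11.53). In rows 2 to 5 it was above that mean (row 3: 9.71 against 9.51). Suv39h2 and Cbx5 gave 0.51 (rho 0.51, permutation p 0.0341 and 0.0375, adjusted p 0.409 and 0.450), and 0.35 without 2 embryos. Within the groups this pair went opposite ways, with an r of -0.49 in control and 0.71 in PJ34 embryos, a difference that was not tested. Setdb2 and Trim28 gave 0.48 (rho 0.33, permutation p 0.0498 and 0.20, adjusted p 0.448 and 0.607), which was 0.17 without MTM13-1 and MTM13-2 and so rested on those embryos. Because embryos share sires, the 4 pairs were also computed over 16 embryos with sire means removed. There r was 0.48 for Trim28 and Cbx5 (permutation p 0.0586, adjusted p 0.422) and 0.33 for Suv39h2 and Cbx5 (permutation p 0.210, adjusted p 0.815). It was 0.58 for Setdb2 and Cbx3 (permutation p 0.0186, adjusted p 0.280) and 0.56 for Setdb2 and Trim28 (permutation p 0.0233, adjusted p 0.280).

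Ehmt1 and Ehmt2, whose proteins work as one complex, gave an r of 0.41 (rho 0.33, permutation p 0.106 and 0.202, adjusted p 0.696 and 0.607). Within sires, after each sire's mean was removed and sire A left out, it was 0.07 over 16 embryos. Setdb1 and Trim28, which act together at retrotransposons, gave -0.25, and Setdb1 and Setdb2 gave -0.07. Setdb2 and Ehmt2 stood differently by method, with an r of 0.32 with group means removed (rho 0.16, permutation p 0.206 and 0.529, adjusted p 0.696 and 0.804) and 0.75 with sire means removed (permutation p adjusted over the 36 pairs 0.0234). Without MTM13-1 and MTM13-2 the first of these was -0.04, and the second was not recomputed without them. Within their sire these embryos had the lowest and highest values of both Setdb2 (8.18 and 10.65) and Ehmt2 (6.26 and 6.82). Setdb2 and Ehmt2 were the only pair with an adjusted p below 0.1 under sire centring, and there was none with array medians removed. The permutations shuffled the 16 values freely although sire means had been removed from them. The p-values under sire centring therefore tend to be too small, and no conclusion is drawn from this pair.

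**Figure D5:**
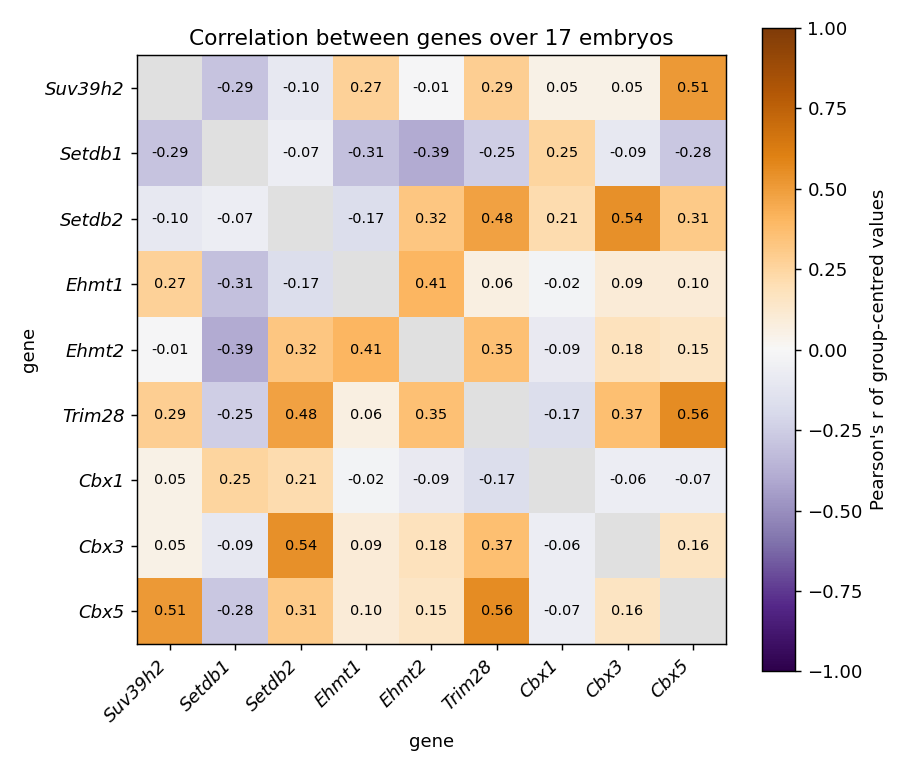
Pearson's r between pairs of genes over 17 embryos, computed on the brightest row of each gene after removing group means; colour and number give r and the diagonal is left blank. The highest value was 0.56 for Trim28 and Cbx5 and the lowest -0.39 for Setdb1 and Ehmt2.

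For the 3 members with the largest SD between embryos, the rows most like each were looked up among the 21779 other rows by the same group-centred r. Setdb2 was most like Rcor2, a corepressor that partners the demethylase Kdm1a, with an r of 0.88 (rho 0.88), which was 0.75 in control and 0.90 in PJ34 embryos. Uprt (0.81) and Eif3b (0.78), a subunit of a translation initiation factor, came next, although Uprt averaged only 5.13 and gave 0.02 within the controls. Cbx1 was most like Pcdh17 (0.84), a protocadherin, Fam110c (0.80) and Ckap2 (0.80), a spindle protein. Trim28 was most like Gtf3c3 (0.77), a subunit of a transcription factor for RNA polymerase III, Hhipl1 (0.76) and Znrf3 (0.76), a ubiquitin ligase of Wnt signalling. These are the extremes of a large number of correlations over the same 17 arrays and are given without a p-value.

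Other genes of the pathway were taken from 3 lists. Of 17 listed partners of the methyltransferases 16 had a row, with 19 rows. By limma at an unadjusted p below 0.05, 3 of them had a higher and 1 a lower mean in PJ34 embryos, against 1.96% and 3.93% of all rows, and 0 passed the adjusted threshold. The smallest p-values belonged to Atf7ip, the cofactor that stabilizes Setdb1 (log2 difference 0.35, unadjusted p 0.016, adjusted p 0.843), and to Zfp644, a zinc finger partner of the Ehmt1 and Ehmt2 complex (-0.31, unadjusted p 0.027, adjusted p 0.843). In that row Atf7ip was above the control mean in 10 of 10 PJ34 embryos, but its second row had a log2 difference of 0.01 (unadjusted p 0.889, adjusted p 0.990), with 5 embryos above and 5 below. Zfp644 was below the control mean in 9. The share of all rows with such counts was not computed. The median difference of this list was 0.01.

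All 12 listed H3K9 demethylases had a row, with 14 rows. By the same measure 2 of them had a higher and 3 a lower mean, against the same 1.96% and 3.93% of all rows, and 0 passed the adjusted threshold. Kdm4c, which removes H3K9 trimethylation, had the smallest p-value of the list and is named for that reason (unadjusted p 0.000425, adjusted p 0.617 by limma). It averaged 9.80 ± 0.41 (SD, n = 7) in control and 8.89 ± 0.46 (SD, n = 10) in PJ34 embryos. Its level was below the control mean in 10 of 10 PJ34 embryos, and the share of all rows with such a count was not computed. Kdm1a, which can demethylate H3K9 when bound to nuclear receptors, had a log2 difference of 0.50 (unadjusted p 0.026, adjusted p 0.843). The median difference of the list was -0.18, and 10 of its 14 rows were lower.

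Of 20 listed HP1 and heterochromatin partners 18 had a row, with 1 row each. By limma 0 of them had an unadjusted p below 0.05 in either direction. The smallest p-values were those of Hells, a chromatin remodeller needed for DNA methylation of repeats (log2 difference 0.46, unadjusted p 0.067, adjusted p 0.860), and Dnmt1, the maintenance DNA methyltransferase (-0.18, unadjusted p 0.088, adjusted p 0.867). The median difference was 0.04.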

How the data were processed

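RNA of single embryos was amplified by a whole-transcriptome method (WT-Ovation One-Direct) and read on Affymetrix Mouse Gene 1.0 ST arrays. The authors deposited log2 intensities made by RMA (background correction, quantile normalization and summarization) in Partek. Their versions and the probe set build were not given in the sources used here. No read depth applies to arrays, and precision depends on how many embryos were measured. The table held 28815 rows; 21780 had exactly 1 symbol in the platform annotation, 1605 had several (none naming a member) and 5430 had none. Symbols of 21689 rows were matched by gene ID to RefSeq genes on GRCm38.p6, and promoter windows are from RefSeq.

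Groups and sires came from the labels. Rows with 1 symbol were fitted with limma 3.58.1 in R 4.3.3 (lmFit and eBayes, two-sided, Benjamini-Hochberg over all rows, threshold 0.1 as in the study's methods), with 7 control against 10 PJ34 embryos, a moderated F test over PJ34 sires, and each embryo against the controls. Spread was compared by limma on absolute deviations from group means, an approach added after the data were seen. On simulated data that test missed many rows with a raised SD and called slightly more of the other rows than its nominal rate, so its p-values are rough. Correlations used 100000 permutations, two-sided, with Python 3.11.15, numpy 2.4.6 and scipy 1.17.1; figures used matplotlib 3.10.9. For genes with several rows, the row with the highest mean was used in correlations. Permutations shuffled values freely after group or sire means were removed, so their p-values tend to be too small, more so with sire means removed.

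Named genes were all members, the 2 genes per pathway list with the smallest p, and the 3 rows most like each of the 3 members with the largest SD. Some cell type markers were also named. The members, lists and tests were chosen with earlier results of these data known. Alternatives were the sire as a random block, sire means, array centring, all rows, bright rows, rows averaged per gene, array weights, a trended prior, one-way analysis of variance, and leaving out each embryo and each sire. Other columns of per-sample values did not occur.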

Additional observations from a re-analysis of the deposited data

How the results depend on the processing

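No row of the members passed an adjusted p of 0.1 in the group comparison under any of 32 alternatives: for Setdb2 the adjusted p by limma ranged from 0.602 to 0.988 and the log2 difference from -0.95 to -0.67, and for Setdb1 they ranged from 0.677 to 0.988 and from -0.54 to -0.26. Neither changed sign. The unadjusted p of Setdb2 was below 0.05 in 31 of the 32 and was 0.075 without sire B (adjusted p 0.988); that of Setdb1 was below 0.05 in 29, the exceptions being without control embryo D-2 and without sires D and MTM13. Rows called over the whole table, 0 in the reported comparison, were 2 with the sire as a random block, among rows above the median level and without sire A, and 1 with rows averaged per gene, with array weights and without sire MTM14; with 1 embryo left out they ranged from 0 to 2. Member rows at an unadjusted p below 0.05, 2 as reported, were 1 without sire B and without sire D, and ranged from 1 to 3 with 1 embryo left out (1 without D-2). Signs changed for Ehmt2 on sire means (-0.0187) and without sire MTM13 (-0.0893), and with 1 embryo left out it ranged from -0.0125 (without MTM13-2) to 0.0873. Without sire MTM11 they changed for Suv39h2 (0.00821), Ehmt1 (0.0915) and Trim28 (0.00771). The median difference of the member rows, -0.039 as reported, was 0.00821 without sire MTM11 and -0.105 without sire MTM13. Between PJ34 sires, rows called were 2 as reported, 1 with arrays centred and among rows above the median level, 4 over all rows of the table and 0 by analysis of variance, which also left 0 member rows at an unadjusted p below 0.05. The pairs with an adjusted p below 0.1 numbered 1 with sire means removed, a setting in which the permutation p-values tend to be too small. The causes were not tested. No paired analysis was possible because the groups share no replicate numbers. Precision is limited by the number of embryos and by the 3 sires per group.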
